A study of Mus musculus with 10 samples.

Results

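Meg3, Rian, Mirg, Kcnq1ot1, Malat1, Neat1, Miat and Snhg11 are long noncoding RNAs of brain that stay mostly in the nucleus. They were chosen by name as rows of the deposited table, and all 8 were found among its 12575 genes. All 8 were also among the 12573 genes that reached more than 1 CPM (reads of a gene scaled to a common library total) in at least 4 libraries. The libraries hold RNA of bulk cortical tissue (frontal cortex in the study's description), so the measurements give the amount of each RNA and not its place in the cell. GENCODE M21, the gene annotation used here, lists 6 of the members as long noncoding or antisense RNAs, Rian as a processed transcript and Snhg11 as protein coding.

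Long noncoding RNAs of the nucleus act as scaffolds or are by-products of the genes they carry. Malat1 lies in nuclear speckles, where splicing factors gather, and its neighbour Neat1 is the core of paraspeckles. Meg3, Rian and Mirg are expressed from the maternal copy of the imprinted Dlk1-Dio3 region and carry many small nucleolar RNAs and microRNAs. Kcnq1ot1 runs antisense through Kcnq1 and, from the paternal copy, silences imprinted neighbours. Miat, also called Gomafu, marks a neuronal nuclear compartment and binds splicing factors, and Snhg11 hosts small nucleolar RNAs.

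Cortex of 5 Cre- and 5 BMAL1 aKO mice was sequenced, with 1 library per mouse. Both groups were C57BL/6 mice of mixed sex that carried the floxed Bmal1 allele (Bmal1 fl/fl) and received tamoxifen. Only BMAL1 aKO mice carried the tamoxifen-dependent Cre under the astrocyte promoter Aldh1l1, so Bmal1 was deleted in astrocytes and kept in neurons and other cells of the same tissue. The labels give an age of 4 months, and the study's methods give a later one. A figure legend of the study counts 1 BMAL1 aKO mouse fewer, which the labels do not identify. All 10 libraries were used here. Arntl, the gene of BMAL1, averaged 34.2 (Cre-) and 34.5 CPM (BMAL1 aKO), which is no check of the labels, as all its exons were counted in tissue of many cell types. Libraries held 21844770 to 48295715 reads, so the least abundant reading of a member, Mirg in Cre- replicate 2, rested on 575 reads, with a counting error of 4.17%. The mt- sum, the summed CPM of the 16 genes encoded in mitochondria, was 61929 CPM (6.19% of reads) in Cre- replicate 3 and 92922 CPM in Cre- replicate 4, while the other 8 libraries lay between 133585 and 198813 CPM. Fold changes of the members and counts of members called are given with and without those 2 libraries. The relation to GC content, the gene lists, the cell type markers and the correlations between genes are given for all 10 libraries only.

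The longest transcript of 4 members holds a run of 10 or more A within its sequence, against 20.8% of 12532 genes matched to a transcript. This share was not adjusted for length, and longer transcripts have more room for such a run. The members' longest transcripts have 3822 (Mirg) to 93092 bases (Kcnq1ot1). Kcnq1ot1 has 10 such runs, Meg3 has 6, and Rian and Malat1 have 1 each. They are shown because cDNA was made with the SMARTer Ultra Low kit, whose primer pairs with A tails. The longest run of each is printed in capitals with 15 bases on either side, in the direction of transcription (GRCm38), from chr7:143226930-143227000 (minus strand) for Kcnq1ot1, chr12:109545802-109545847 (plus) for Meg3, chr12:109652214-109652258 (plus) for Rian and chr19:5795973-5796014 (minus) for Malat1. Each lies within 1 exon.
Kcnq1ot1: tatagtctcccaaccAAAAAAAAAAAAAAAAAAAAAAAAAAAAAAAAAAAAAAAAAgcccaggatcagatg
Meg3: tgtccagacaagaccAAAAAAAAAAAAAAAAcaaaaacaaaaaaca
Rian: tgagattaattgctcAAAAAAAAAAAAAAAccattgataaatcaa
Malat1: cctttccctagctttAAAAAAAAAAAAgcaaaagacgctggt
The Kcnq1ot1 run is 41 bases long and starts at base 69565 of a transcript of 93092 bases. The Meg3 run is 16 bases long and starts at base 420 of 14548, and that of Rian is 15 bases long and starts at base 5309 of 8089. The Malat1 run of 12 bases starts at base 6674 of 6983, next to the genome-encoded 3′ end that RNase P forms. Mirg, Neat1, Miat and Snhg11 have no such run.

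Promoters were searched because BMAL1 binds E-boxes. The RefSeq table (GRCm38.p6) gave 8 promoters of 300 bases, 250 before and 50 after a start, for 7 members, of which Meg3 had 2. None of the 8 holds CACGTG, which 7.15% of 32851 promoters hold on either strand, and none holds CACGTT, which 4.68% hold. Their CG content differed more. Miat had 25 CG, Snhg11 21, Meg3 13 at its first start and 1 at its second, Mirg and Malat1 10 each, Kcnq1ot1 9 and Rian 0, where the median of all promoters was 7. Of the imprinted members, the promoters of Meg3, Kcnq1ot1 and Rian are printed to show that range, with every CG in capitals, from chr12:109540746-109541045 (plus), chr7:143296498-143296797 (minus) and chr12:109603695-109603994 (plus).
Meg3: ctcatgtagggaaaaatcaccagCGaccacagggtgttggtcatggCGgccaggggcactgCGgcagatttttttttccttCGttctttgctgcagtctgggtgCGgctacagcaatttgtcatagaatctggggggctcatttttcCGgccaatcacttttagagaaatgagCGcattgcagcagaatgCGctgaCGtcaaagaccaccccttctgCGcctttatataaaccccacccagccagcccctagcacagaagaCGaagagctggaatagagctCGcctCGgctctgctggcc
Kcnq1ot1: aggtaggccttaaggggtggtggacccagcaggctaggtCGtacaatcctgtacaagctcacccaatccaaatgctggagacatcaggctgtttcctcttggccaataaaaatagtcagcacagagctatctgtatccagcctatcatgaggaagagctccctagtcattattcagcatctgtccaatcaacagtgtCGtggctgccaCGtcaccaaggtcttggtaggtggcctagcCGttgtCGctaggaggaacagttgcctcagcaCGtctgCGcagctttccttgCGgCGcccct
Rian: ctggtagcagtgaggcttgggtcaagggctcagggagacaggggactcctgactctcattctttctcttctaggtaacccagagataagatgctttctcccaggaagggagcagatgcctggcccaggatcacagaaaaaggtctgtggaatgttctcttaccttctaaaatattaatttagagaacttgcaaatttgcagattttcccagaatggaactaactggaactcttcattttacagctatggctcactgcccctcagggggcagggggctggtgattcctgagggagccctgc
The 3 differ in CG although all belong to imprinted regions. The absence of a motif says only that these letters are not in these windows.

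Per kilobase of annotated exon, the members spanned more than 2 orders of magnitude. Over the 10 libraries Malat1 led with 457 ± 38.4 CPM per kb (SD), followed by Meg3 with 397 ± 49.2 and Snhg11 with 316 ± 47.6. Miat was at 33.0 ± 5.61 and Rian at 30.4 ± 2.24 CPM per kb, and Neat1 at 4.69 ± 0.988, Mirg at 4.44 ± 0.460 and Kcnq1ot1 at 3.17 ± 0.778. Of neighbours in this order, Malat1 was above Meg3 in 8 of 10 libraries, Miat above Rian in 8, Neat1 above Mirg in 6 and Mirg above Kcnq1ot1 in 9, and the ranges of each of these pairs overlapped. The ranges of Meg3 and Snhg11 also overlapped, although Meg3 was higher in 10 of 10. The step from Snhg11 to Miat was 9.57-fold and that from Rian to Neat1 6.48-fold, and neither pair overlapped. Among all genes kept, ranked by mean CPM, Meg3 was the 8th, Malat1 the 14th and Snhg11 the 16th. The level of Kcnq1ot1 is spread over 93092 exon bases, so its low value per kb stands beside a mean of 295 CPM.

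No member passed the test between the genotypes, at an adjusted p of at most 0.1 from limma, which fits log2(CPM + 0.5) with a quality weight per library. Among all genes 42 of 12573 passed, or 0.334% (36 higher and 6 lower in BMAL1 aKO), and 4 passed without the weights, or 0.0318%. Cre- replicate 1 had a weight of 7.19, against 0.181 to 1.52 for the other Cre- libraries, so it carried most of the weighted Cre- mean. At an unadjusted p under 0.05 (limma) there was 1 member with weights, against 2117 of all genes, and 0 without, against 602, so these member counts are near the background. The median log2 fold change of the members was 0.02, and that of all genes -0.04. In bulk tissue fewer cells of a type and less RNA per cell cannot be told apart. The annotation places 13 small nucleolar RNAs and 4 microRNAs within Rian and 15 microRNAs within Mirg, whose reads these libraries cannot separate from the host RNA where they lie on its exons. Exons of Meg3, Malat1 and Miat each overlap the span of 1 annotated gene on the opposite strand (Gm26906, Gm37376 and Gm26953). These genes are absent from the deposited table.

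Of the RNAs of the Dlk1-Dio3 region on chromosome 12, Meg3 (109541001 to 109571726, plus strand) is a tumour suppressor RNA that binds chromatin regulators. Meg3 measured 6489, 6731, 5612, 6660 and 8521 CPM across Cre- libraries 1 to 5, against 7599, 8061, 6951, 7108 and 8141 CPM across BMAL1 aKO libraries 1 to 5. Cre- replicate 5 was above every BMAL1 aKO library and the other 4 Cre- libraries were below all of them. BMAL1 aKO cortex differed from Cre- by 0.14 ± 0.10 on the log2 scale (value ± standard error, limma adjusted p = 0.456), and the exact permutation p was 0.167. Without Cre- replicate 1 the estimate was -0.03, from a fit whose weights did not converge. Without Cre- replicates 3 and 4 the estimate was -0.09, with the weights estimated anew.

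Rian (109603940 to 109661716, plus strand), the host of a large cluster of small nucleolar RNAs, was the steadiest member. Rian measured 576, 535, 563, 529 and 649 CPM across Cre- libraries 1 to 5, against 499, 569, 549, 555 and 519 CPM across BMAL1 aKO libraries 1 to 5. The groups overlapped, with the highest value in Cre- replicate 5 and the lowest in BMAL1 aKO replicate 1. The log2 fold change of Rian was -0.11 ± 0.06 (standard error, adjusted p = 0.387, limma). It lay between -0.21 and -0.03 in every alternative fit and passed the threshold in none, the largest size coming without Cre- replicates 3 and 4 (adjusted p = 0.268, limma). Over the 10 libraries its coefficient of variation was 7.38%, and 6.45% of genes had a lower one.

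Mirg (109729764 to 109749460, plus strand) carries microRNAs of the same region. Mirg measured 31.5, 26.3, 35.3, 31.4 and 35.5 CPM across Cre- libraries 1 to 5, against 35.2, 36.7, 32.1, 31.9 and 28.2 CPM across BMAL1 aKO libraries 1 to 5. Both groups covered nearly the same range. Its log2 fold change was 0.01 (95% interval -0.16 to 0.18, adjusted p = 0.954, limma).

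Kcnq1ot1 (chromosome 7, 143203458 to 143296549, minus strand) varied most. Kcnq1ot1 measured 279, 400, 151, 223 and 352 CPM across Cre- libraries 1 to 5, against 256, 314, 290, 349 and 339 CPM across BMAL1 aKO libraries 1 to 5. The lowest 2 and the highest 2 libraries were all Cre-, so the BMAL1 aKO values lay inside the Cre- range. Its log2 fold change was 0.12 (95% interval -0.14 to 0.38, adjusted p = 0.620, limma), and -0.13 without Cre- replicates 3 and 4 (adjusted p = 0.585, limma). Without the weights, with all libraries, it was 0.21 (interval -0.28 to 0.70, adjusted p = 0.804, limma). Its coefficient of variation was 24.5%, against a median of 16.4% for all genes, and its highest library was 2.64 times its lowest. The libraries do not mark strand, and Kcnq1ot1 overlaps the span of Kcnq1 on the opposite strand. Reads of either strand in the overlap cannot be told apart. Kcnq1 is absent from the deposited table, and whether its exons lie in the overlap was not tested.

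Malat1 (chromosome 19, 5795690 to 5802672, minus strand) measured 3157, 3237, 2746, 3229 and 3754 CPM across Cre- libraries 1 to 5, against 3269, 3110, 3414, 3059 and 2972 CPM across BMAL1 aKO libraries 1 to 5. All BMAL1 aKO values lay inside the Cre- range. The difference was -0.03 on the log2 scale (95% interval -0.19 to 0.13, adjusted p = 0.851, limma), and the sign turned with the scaling, at 0.01 with TMM factors and when scaled to reads outside the mt- genes. Without Cre- replicates 3 and 4 the difference was -0.18 (unadjusted p = 0.0548, adjusted p = 0.364, limma), and with the replicate block -0.16 (adjusted p = 0.466, limma).

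Neat1 (chromosome 19, 5824708 to 5845478, minus strand), 22035 bases from Malat1, gave the largest difference of the members and still did not pass. Neat1 measured 83.9, 90.3, 56.8, 120 and 96.5 CPM across Cre- libraries 1 to 5, against 101, 85.1, 118, 96.9 and 126 CPM across BMAL1 aKO libraries 1 to 5. The groups overlapped, with Cre- replicate 3 far below the rest and Cre- replicate 4 the second highest of all. For Neat1 the log2 fold change was 0.30 ± 0.11 (standard error, 95% interval 0.07 to 0.53, adjusted p = 0.210, limma). Without the weights it was 0.26 (interval -0.13 to 0.65, adjusted p = 0.803, limma), and the exact permutation p was 0.238. The estimate lay between 0.13 and 0.36 in every alternative fit, with a smallest adjusted p of 0.126 (limma). Without Cre- replicates 3 and 4 it was 0.20 (adjusted p = 0.371, limma).

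Miat (chromosome 5, 112213228 to 112229395, minus strand) measured 299, 206, 288, 381 and 353 CPM across Cre- libraries 1 to 5, against 266, 368, 318, 281 and 309 CPM across BMAL1 aKO libraries 1 to 5. The lowest and the highest library were both Cre-. The genotypes differed by 0.01 on the log2 scale (95% interval -0.21 to 0.22, adjusted p = 0.972, limma).

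Snhg11 (chromosome 2, 158375638 to 158386145, plus strand) is abundant in neurons. Snhg11 measured 2620, 2554, 2182, 2560 and 3360 CPM across Cre- libraries 1 to 5, against 1985, 3013, 2863, 2816 and 2984 CPM across BMAL1 aKO libraries 1 to 5. BMAL1 aKO replicate 1 was the lowest of all libraries, and the other 4 BMAL1 aKO libraries lay between the 2 highest Cre- values. Its log2 fold change was 0.04 (95% interval -0.19 to 0.26, adjusted p = 0.874, limma), and -0.18 without Cre- replicates 3 and 4 (adjusted p = 0.489, limma).

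**Figure D1:**
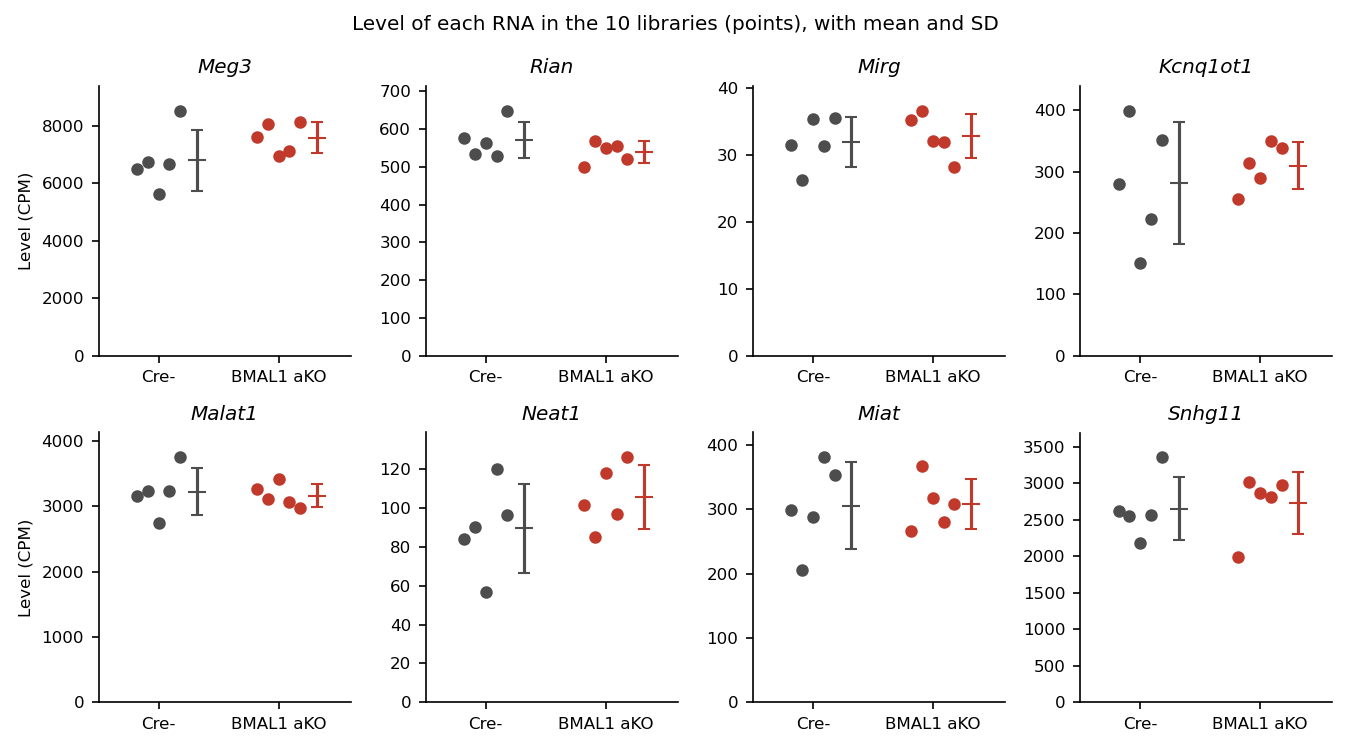
Level in CPM (vertical axes from 0) of each RNA in the 5 Cre- and 5 BMAL1 aKO libraries, with the mean and SD beside the points. Points of both genotypes overlap for every RNA, and the Cre- points of Kcnq1ot1 span 151 to 400 CPM.

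**Figure D2:**
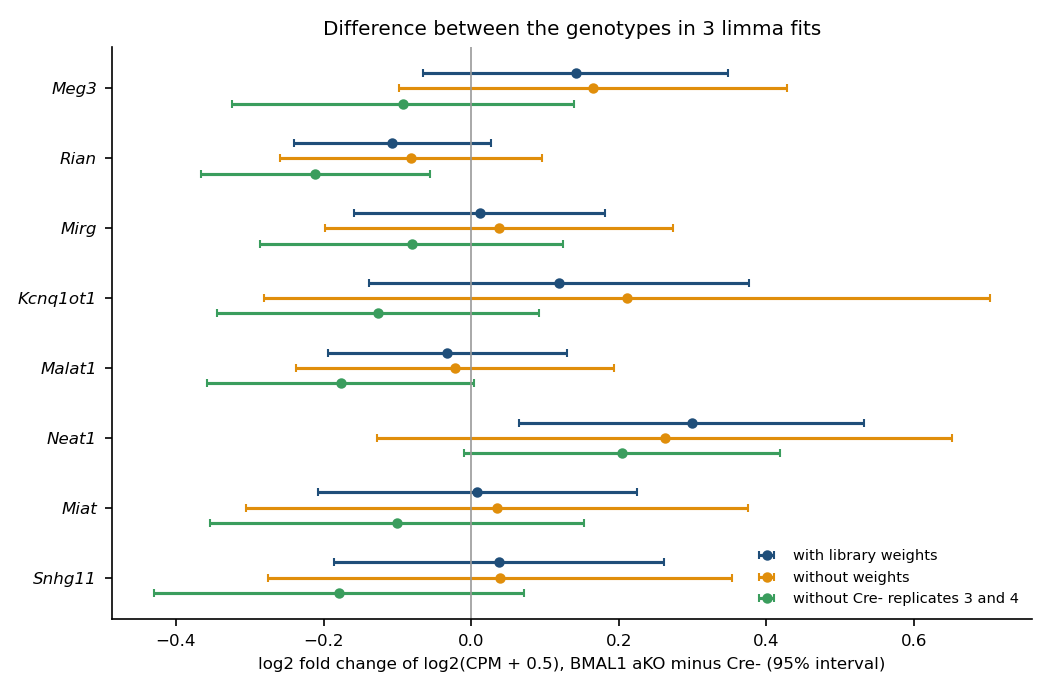
Log2 fold change of each RNA, BMAL1 aKO minus Cre-, with its 95% interval in 3 limma fits: with library weights, without weights, and with weights but without Cre- replicates 3 and 4. With weights and all libraries only the interval of Neat1 lies off 0. Without those 2 libraries only that of Rian does (-0.37 to -0.06), and Meg3, Mirg, Kcnq1ot1, Miat and Snhg11 change sign. The weights were estimated anew in each weighted fit, and their part in these sign changes was not tested.

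Ratios of neighbours in the same library do not depend on how the library is scaled. The log2 ratio of Rian to Meg3 was -3.49, -3.65, -3.32, -3.65 and -3.71 in Cre- and -3.93, -3.82, -3.66, -3.68 and -3.97 in BMAL1 aKO replicates 1 to 5. Its mean was -3.57 ± 0.16 in Cre- and -3.81 ± 0.14 in BMAL1 aKO (SD, n = 5 each), a difference of -0.25 with a two-sided exact permutation p of 0.0397, where the smallest p that the splits of 10 libraries allow is 0.00794. Cre- replicate 5 was below 2 of the BMAL1 aKO libraries. Over the 3 ratios compared, the Benjamini-Hochberg adjusted p (exact permutation test) was 0.119, so the difference did not pass the correction. Without Cre- replicates 3 and 4 it was -0.19 (exact permutation p = 0.107). The log2 ratio of Mirg to Meg3 differed by -0.13 (exact permutation p = 0.429) and that of Neat1 to Malat1 by 0.28 (exact permutation p = 0.143).

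The mt- sum itself averaged 128448 ± 53313 CPM for Cre- mice and 161624 ± 16009 CPM for BMAL1 aKO mice (SD, n = 5 each), a log2 difference of 0.44 that did not pass (exact permutation p = 0.214). Without Cre- replicates 3 and 4 this difference was 0.01 (exact permutation p = 0.964). The relation of each member to the mt- sum was taken as the correlation of the log2 values over the 10 libraries, with a permutation test of 100000 resamples and adjustment over 12557 genes outside the mt- group. Because CPM are shares of a library, a larger mt- sum lowers every other CPM where the amounts of the other RNAs stay the same. Among these genes 58.1% passed in either direction and 17.3% passed with a positive correlation.

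Kcnq1ot1 followed the mt- sum most closely, with r = 0.94 (adjusted permutation p = 0.00198) and Spearman's rho = 0.81 (adjusted permutation p = 0.0264). Its log2 level changed by 0.76 per unit of the log2 mt- sum, and 98.7% of genes had a lower r. Leaving out 1 library at a time gave r = 0.84 to 0.99. Without Cre- replicates 3 and 4, the 2 libraries farthest from the median mt- sum, r was 0.69 (exact permutation p = 0.0597, adjusted p = 0.219, n = 8), so passing the threshold rested on those libraries. The slope was then 0.76 as before, and 94.6% of genes had a lower r. With genotype means removed r was 0.95 (adjusted p = 0.0110 by permutation within genotype).

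Meg3 was the other member to pass, with r = 0.67 (adjusted permutation p = 0.0643) and rho = 0.52 (adjusted permutation p = 0.220). Its r was 0.30 without Cre- replicate 3 and 0.00 without Cre- replicates 3 and 4, so the relation rested on those libraries. With genotype means removed r was 0.58 (adjusted p = 0.292 by permutation within genotype), which did not pass. It also lost its call without Cre- replicate 4 (r = 0.66, adjusted permutation p = 0.111), and without BMAL1 aKO replicate 5 (r = 0.65, adjusted permutation p = 0.111). With 2 of 8 members called, all positive, against 17.3% of genes, the share of members is close to the background.

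The other 6 members did not pass. Neat1 had r = 0.55 and Malat1 r = 0.45, and these fell to -0.24 and -0.11 without Cre- replicate 3. Neat1 passed without Cre- replicate 4 (r = 0.80, adjusted permutation p = 0.0729), and Snhg11 without BMAL1 aKO replicate 1 (r = 0.67, adjusted permutation p = 0.0887). Snhg11 had r = 0.39, Rian -0.10, Miat -0.35 and Mirg -0.41. Miat passed in the negative direction without Cre- replicate 3 (r = -0.73, adjusted permutation p = 0.0944). Spearman's rho was 0.33 for Neat1, 0.19 for Malat1, 0.10 for Snhg11, -0.35 for Rian, -0.55 for Miat and -0.39 for Mirg.

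Scaling changed the count. With each library scaled to its reads outside the mt- genes, 5 members passed with a positive correlation, against 27.9% of genes. Kcnq1ot1 then had r = 0.96, Meg3 0.83, Malat1 0.77, Neat1 0.67 and Snhg11 0.60, while Rian was at 0.49, Mirg at 0.02 and Miat at -0.10. Without Cre- replicates 3 and 4 no member passed on this scale either, where 1.18% of all genes passed with a positive correlation, and 1 had an unadjusted permutation p under 0.05, which was Kcnq1ot1 (r = 0.77). On the deposited scale those 8 libraries gave 0 members called and 1, Miat, at an unadjusted permutation p under 0.05 (r = -0.71). The share of all genes called was then 11.1% (1.42% positive), so 0 of 8 members is near the background in both. In both, the deposited CPM and the rescaled CPM, Kcnq1ot1 had the highest r of the 8 members.

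**Figure D3:**
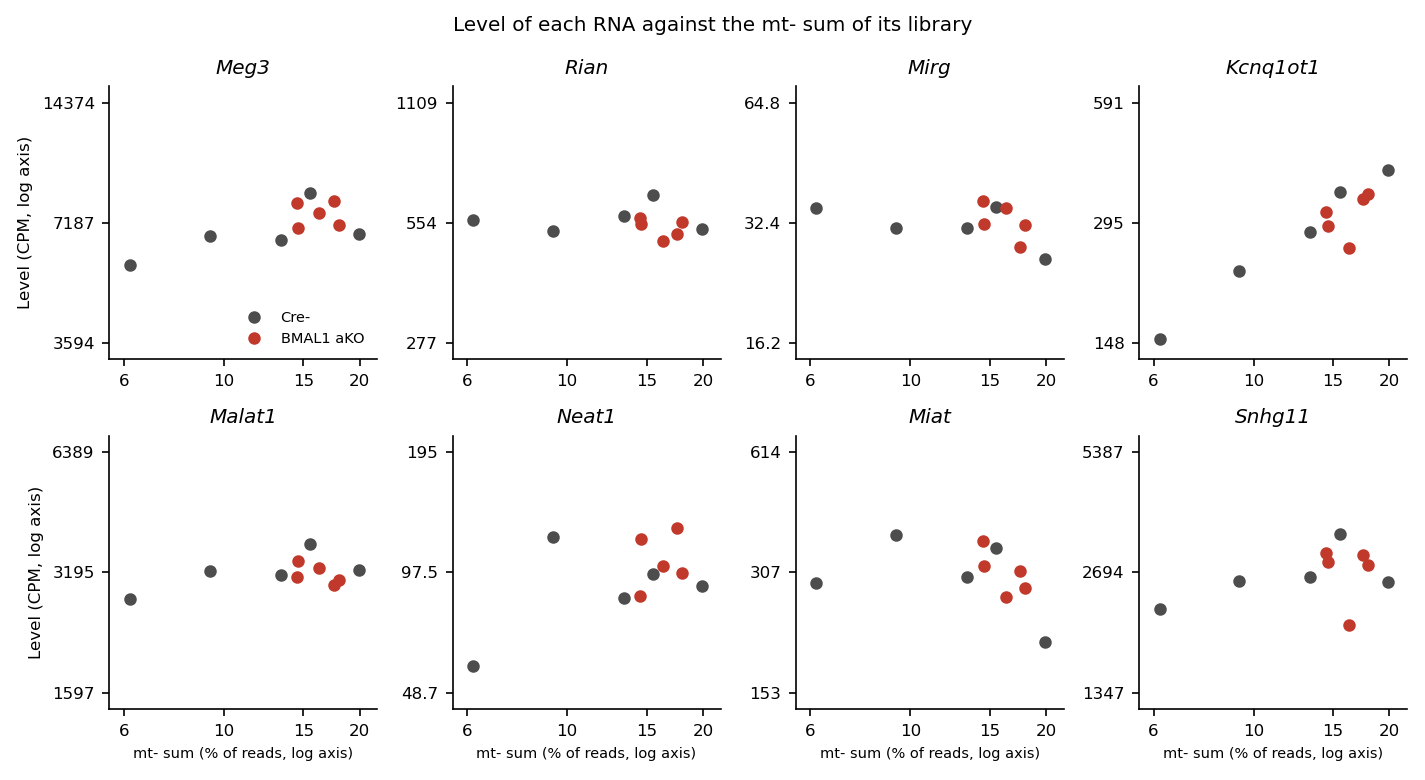
Level in CPM (log axis, the same span in every panel) of each RNA against the mt- sum as percent of reads (log axis), 1 point per library. Kcnq1ot1 rises from 151 CPM at 6.19% to 400 CPM at 19.9%, and Rian stays between 499 and 649 CPM.

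**Figure D4:**
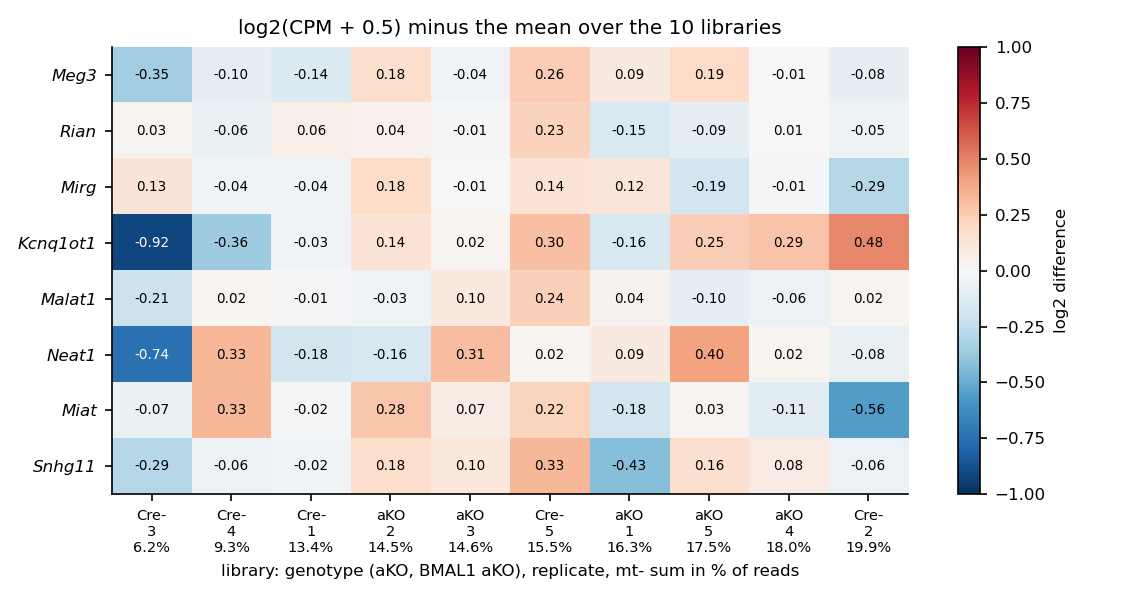
Log2(CPM + 0.5) of each RNA minus its mean over the 10 libraries, with libraries ordered by the mt- sum from left to right. Cre- replicate 3, at the left, is at -0.92 for Kcnq1ot1, -0.74 for Neat1 and -0.35 for Meg3 but at 0.03 for Rian and 0.13 for Mirg.

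GC content of the transcripts moved with this relation across genes. Over 12532 genes the correlation of GC content with r was -0.58, given as a description since all genes share the 10 libraries. In 5 bins of equal gene number from low to high GC content, the median r of genes was 0.52, 0.03, -0.48, -0.76 and -0.85. Kcnq1ot1 (40.3% GC) and Malat1 (42.5%) lie in the lowest bin. Rian has 35.8% GC, lower than all but 0.471% of genes, and yet r = -0.10. Meg3 has 49.2% GC, in the middle bin, and lay above that bin's median. Miat (55.1%) and Mirg (51.9%) lie in the bin of second highest GC and had negative r, both nearer to 0 than its median. Snhg11 (44.9%) and Neat1 (47.3%) lie in the bin of second lowest GC. The part of GC content in the members' relation was not tested.

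**Figure D5:**
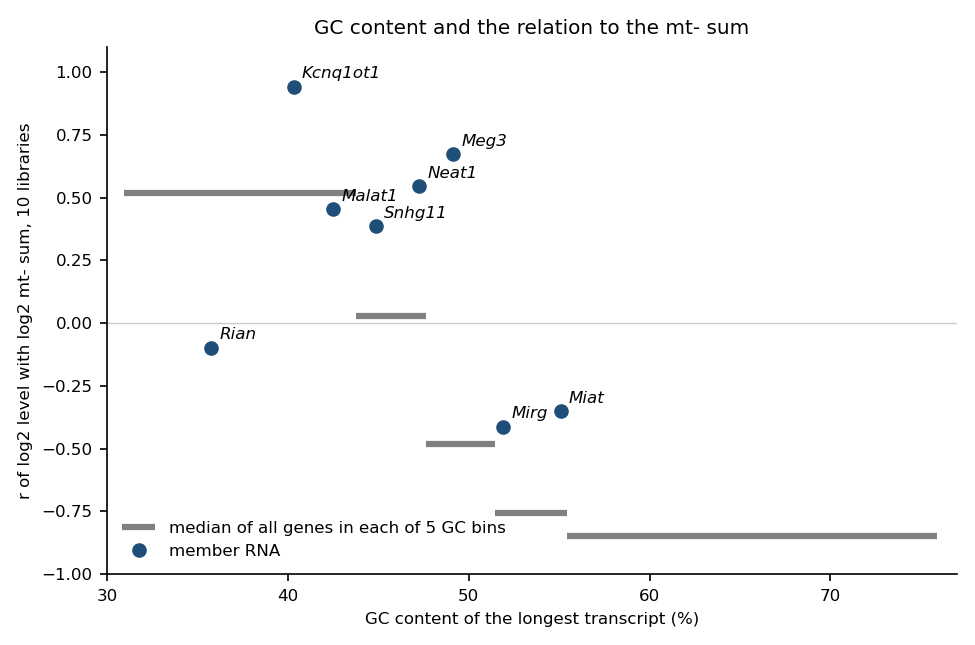
Correlation of each member's log2 level with the log2 mt- sum over 10 libraries, against the GC content of its longest transcript in percent, with grey lines for the median of all genes in each of 5 bins by GC content. Rian, at 35.8% GC, lies well below its bin's line, and the other members lie above or near theirs.

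None of the genes listed as partners or neighbours of the members passed the test between the genotypes. Of all genes 0.334% passed, so a count of 0 in lists of this size is near the background. Of 14 paraspeckle proteins, 23 nuclear speckle and splicing factors and 11 proteins that process the ends of Malat1 and Neat1, 0 passed in either direction (limma, adjusted p at most 0.1), with median log2 fold changes of -0.01, 0.02 and 0.08. Hnrnph3, an RNA-binding protein of paraspeckles, had 0.37 (adjusted p = 0.182, limma) and Nudt21, a 3′ end processing factor, -0.24 (adjusted p = 0.183, limma). Rpp21, a subunit of RNase P, had 0.46 (adjusted p = 0.148, limma). None of 14 measured genes in or flanking the Dlk1-Dio3 region passed, of which only Dlk1 and Rtl1 lie within it, and none of 7 in or near the Kcnq1ot1 region did. Cdkn1c, an imprinted cell cycle inhibitor that Kcnq1ot1 silences on the paternal copy, had 0.30 (adjusted p = 0.298, limma). Osbpl5, another gene there, had -0.38 (adjusted p = 0.188, limma). The r with the mt- sum was 0.85 for Cdkn1c and -0.90 for Osbpl5.

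Other noncoding RNAs and imprinted genes gave the same count, which is again near the background of 0.334% of all genes. Of 23 other long noncoding RNAs 0 passed, with a median log2 fold change of 0.12. Snhg14, the RNA antisense to Ube3a, had -0.30 (adjusted p = 0.148, limma) and r = 0.07 with the mt- sum, and Gas5, a host of small nucleolar RNAs, had 0.45 (adjusted p = 0.183, limma) and r = 0.91. Of 18 imprinted protein-coding genes 0 passed, with -0.22 for Impact (adjusted p = 0.148, limma) and -0.32 for Mest (adjusted p = 0.173, limma). Of 19 clock genes 0 passed, with -0.35 for Nr1d1 (adjusted p = 0.154, limma), a direct target of BMAL1. Of 83 genes of cytosolic ribosomal proteins 0 passed (median log2 fold change 0.16), and of the 16 mt- genes 0 passed (median 0.31).

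Genes whose log2 level tracked a member most closely over the 10 libraries are given as a description. They were picked as the highest r among all genes kept. Such picking over 10 libraries gives high values by itself, and these r were not tested. For Kcnq1ot1 they were Tmem47 (r = 0.99), Ccnc (0.99) and Tra2a (0.99), whose own r with the mt- sum was 0.92 each. For Meg3 they were Cers4 (0.92), Pnisr (0.90) and Appl2 (0.88), for Rian Plekha1 (0.92), Trit1 (0.91) and Cdc14b (0.90), and for Mirg A630052C17Rik (0.95), Myh11 (0.90) and Camk1 (0.90). For Malat1 they were Gca (0.96), Itgav (0.92) and Cab39l (0.90), for Neat1 Fap (0.95), A930012L18Rik (0.92) and 1110046J04Rik (0.92), for Miat Dhrs11 (0.96), Col5a1 (0.95) and Mrps27 (0.93), and for Snhg11 Mbtd1 (0.95), Mtf2 (0.94) and Cpsf6 (0.94). Members were left out of this search. The highest r between 2 members was 0.67, for Meg3 and Kcnq1ot1, below every r of a member with the genes listed here. Between members that lie next to each other, r was 0.17 for Meg3 and Rian, 0.40 for Rian and Mirg, and 0.47 for Malat1 and Neat1.

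Cell type markers show the tissue in each group, and their counts stand beside 0.334% of all genes that passed between the genotypes. Of 10 neuronal, 8 oligodendrocyte, 8 microglial and 8 endothelial markers 0 passed, and of 10 astrocyte markers 1 did, Gja1, a gap junction connexin, which rose by 0.44 (adjusted p = 0.0273, limma). Neuronal markers summed to 7303 to 8308 CPM in Cre- and 6858 to 8501 CPM in BMAL1 aKO libraries, and astrocyte markers to 5703 to 7211 and 6791 to 8359 CPM. Oligodendrocyte markers summed to 3483 to 6200 CPM and 3996 to 5713 CPM in the same order, microglial markers to 220 to 349 and 220 to 301, and endothelial markers to 227 to 286 and 219 to 284. Of 9 striatal markers, which differ with the dissection of cortex, 0 passed, and their sum ran from 509 to 2146 CPM in Cre- and from 740 to 1293 CPM in BMAL1 aKO libraries. Their part in the members' levels was not tested.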

How the data were processed

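RNA was extracted from cortical tissue with Trizol, and double-stranded cDNA was made with the SMARTer Ultra Low kit, which does not mark strand. The authors used STAR 2.5.1a for alignment to GRCm38 and featureCounts 1.4.6-p5 for counting, and deposited CPM per gene and library. The deposited CPM summed to 991186 to 992702 per library and hold no TMM scaling. Each value came out as a whole number of reads within 0.01 read, which gave the depth.

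Groups were taken from the labels, 5 libraries each. Log2(CPM + 0.5) of genes above 1 CPM in at least 4 libraries was fitted in R 4.3.3 by limma 3.58.1, using a quality weight per library (0.181 to 7.19), a variance trend and Benjamini-Hochberg adjustment over 12573 genes at a threshold of 0.1. In the main fit Cre- replicates 1 to 5 had weights of 7.19, 0.454, 0.181, 0.519 and 1.52. BMAL1 aKO replicates 1 to 5 had 0.714, 0.902, 1.79, 1.39 and 1.35. The weights were estimated anew in each weighted fit. Of 23 weighted fits 2 did not converge, those without Cre- replicate 1 and without Cre- replicate 5. Single values were tested by two-sided exact permutation, and correlations with 100000 resamples in Python 3.11.15 with NumPy 2.4.6. Figures were drawn with matplotlib 3.10.9. On simulated data in which 200 of 12573 genes differed by a log2 fold change of 1, the fit recovered a median of 85.5% with a median of 20 false calls. Recovery at the size of the largest member difference, 0.30 for Neat1 in the main fit, was not tested. How far the 85.5% and the 20 false calls hold for the measured libraries, with their unequal weights, was not tested either.

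The members, gene lists and tests were chosen with earlier results of these data known. Named genes were the members, the genes of each list past the threshold or otherwise those with the smallest p, and the 3 genes most correlated with each member. Positions and exon lengths are from GENCODE M21, and promoters from RefSeq. Replicates of a group differed by more than sampling noise (chi-square per degree of freedom 12.9 to 447.4). Libraries with the same replicate number did not deviate together, with r from -0.63 to 0.36 over 5 pairs. P-values measure the spread between these libraries.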

Additional observations from a re-analysis of the deposited data

Results flagged for a closer look

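In 24 groups of 5 libraries (the 8 RNAs, the mt- sum and 3 ratios, in each genotype), 2 had a library whose gap to its nearest neighbour was more than 0.71 of the group's range, where chance gives about 1 in 20. Snhg11 was at 1985 CPM in BMAL1 aKO replicate 1, against 2816 to 3013 CPM in the other 4, a gap of 0.808 of the range. The log2 ratio of Mirg to Meg3 was -8.15 in BMAL1 aKO replicate 5, against -7.78 to -7.73 in the other 4, a gap of 0.897 of the range.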

How the results depend on the processing

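No member passed the threshold between the genotypes in any of 26 alternative fits, of which 4 were chosen after seeing the data, or at a threshold of 0.05, and the smallest adjusted p of a member was 0.126 (limma). Of 208 member fold changes in these fits 36 changed sign and 172 kept both direction and side of the threshold. The count models edgeR and DESeq2 were not run. The recovered reads were fitted with limma's voomWithQualityWeights and TMM, which called 29 genes and 0 members.

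The count of all genes called, 42, was 20 at a threshold of 0.05, 4 without quality weights, 68 with TMM factors, 68 scaled to reads outside the mt- genes, 22 with Xist as a covariate, 7 with the replicate block and 1 to 844 when each library was left out. The 844 came without BMAL1 aKO replicate 3 and the 1 without Cre- replicate 1, a fit whose weights did not converge. Without weights it was 18 with the mt- sum as a covariate, 4 with TMM factors and 2 with the replicate block. The causes were not tested.

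Sign changes of members were as follows. Meg3 was at -0.0923 without the Cre- libraries 3 and 4 and from -0.0322 to 0.21 with each library left out. Mirg was at -0.12 with the replicate block, -0.0807 without the Cre- libraries 3 and 4 and from -0.0469 to 0.0701 with each left out. Kcnq1ot1 was at -0.12 with the mt- sum as a covariate, -0.15 without weights and with that covariate, and -0.13 without the Cre- libraries 3 and 4. Malat1 was at 0.0140 with TMM factors, 0.0082 with median-of-ratios scaling, 0.0138 scaled to reads outside the mt- genes, 0.0008 with Xist as a covariate, 0.0293 with TMM factors and no weights, and from -0.14 to 0.0094 with each left out. Miat was at -0.13 with the replicate block, -0.10 without the Cre- libraries 3 and 4 and from -0.0886 to 0.0508 with each left out. Snhg11 was at -0.0367 with the mt- sum as a covariate, -0.11 with the replicate block, -0.0462 without weights and with that covariate, -0.18 without the Cre- libraries 3 and 4, and from -0.10 to 0.12 with each left out. The lower ends of these ranges with each library left out came without Cre- replicate 1. The upper ends for Meg3, Malat1 and Snhg11 came without Cre- replicate 5. The weights of both these fits did not converge. The replicate numbers did not pair the libraries, and the block changed no call of a member.

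The number of members called for the mt- relation, 2, was 1 with Spearman's rho, 5 with TMM factors, 5 scaled to reads outside the mt- genes, 1 with genotype means removed, 0 without the 2 libraries farthest from the median and 1 to 3 with each library left out. The share of all genes called positive, 17.3%, was 11.4, 29, 27.9, 16.7 and 1.42% in the first 5 of these settings and 8.9 to 19.6% with each library left out. Scaled to reads outside the mt- genes the member count was 1 with Spearman's rho (18.9% of all genes positive), 0 without the 2 farthest libraries (1.18%) and 1 with genotype means removed (26.2%). The r of Rian was 0.54 with TMM factors, 0.49 scaled to reads outside the mt- genes (Spearman's rho 0.49), 0.11 with genotype means removed and 0.62 with both. That of Mirg was 0.0454 with TMM factors and 0.0241 scaled to reads outside the mt- genes. Without the 2 farthest libraries r was -0.22 for Malat1 and -0.15 for Snhg11, and with each library left out it ran from -0.11 to 0.56 for Malat1 and from -0.24 to 0.80 for Neat1.

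The Rian to Meg3 difference, -0.25, had an exact p of 0.0625 under the replicate block, the smallest that 5 pairs allow, and was -0.28 to -0.18 with each library left out, passing p = 0.05 in 3 of 10. Without the Cre- libraries 3 and 4 it was -0.19. The Mirg to Meg3 difference was 0.0098 without the Cre- libraries 3 and 4. The Neat1 to Malat1 difference ran from 0.19 to 0.40 with each library left out, and passed without Cre- replicate 4 (exact permutation p = 0.0238). The mt- sum difference ran from 0.20 to 0.62 with each left out, and passed without Cre- replicate 2 (exact permutation p = 0.0238). The counting error of a member was at most 4.17%, and the part of depth in the calls was not tested.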
